A study of Mus musculus with 2 samples.

Results

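The genes of the cytosolic translation initiation and elongation factors were examined in the aged mouse hippocampus. They are the genes whose symbol begins with Eif and a digit from 1 to 6, or with Eef and the digit 1 or 2, and that have at least 1 protein-coding transcript. The X- and Y-linked eIF2 gamma genes were left out by the rule. This gave 66 genes of 55536 in the deposited annotation, in 18 groups by role. The rule reads symbols and transcript classes and no measured level, while the set itself and the pairs and lists below were chosen with earlier results of these data known.

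Initiation factors bring the small ribosomal subunit, the initiator tRNA and the mRNA together and place the start codon. eIF2 carries the initiator tRNA, eIF2B recharges eIF2 with GTP, eIF3 holds the subunit, and eIF4F binds the mRNA cap and unwinds the leader. Elongation then repeats a short cycle in which eEF1A delivers each aminoacyl-tRNA and eEF2 moves the ribosome forward by a codon. Neurons control these steps locally at synapses, through eIF2 kinases, eIF4E-binding proteins and the kinase of eEF2. eEF1A has a form found in most cells, Eef1a1, and a form known from neurons and muscle, Eef1a2.

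Total RNA had been sequenced from hippocampus tissue of female B6CASTF1/J mice, the hybrid of C57BL/6J and CAST/EiJ, at 18 to 20 months of age. There is 1 group with libraries numbered as biological replicates 1 and 2, each from 300 ng of RNA, and no treatment is named. The libraries have different biosample labels but share a donor label, so the labels do not show whether they are separate animals. No contrast exists, no p-value was computed, and an SD over both libraries (n = 2) may be technical. The same group served every value, and differences between the libraries have no replicate check.

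Each library had been quantified in tables with the columns of RSEM, used here unless stated, and again in a table with the columns of kallisto, and these are called the RSEM and the kallisto layout. The depth was 35358099 gene-assigned counts for replicate 1 and 36307276 for replicate 2. The 7 markers of hippocampal excitatory neurons were all detected, with sums of 2692 and 2525 TPM, and none of them lay over 1.2-fold apart between the libraries. Markers of oligodendrocytes were higher in replicate 1 by over 1.2-fold in 4 of 5 genes, with summed levels of 1043 and 754 TPM. Meningeal fibroblast markers were higher in replicate 2 in 6 of 6 genes, with sums of 53.5 and 88.5 TPM, and red cell markers in 5 of 5, with sums of 345 and 521 TPM. The choroid plexus sum was 158 and 54.4 TPM, of which Ttr alone held 150 and 49.1 TPM. Of the 5 choroid plexus genes 2 were detected. Of the 3 with a mean count of at least 50, 2 were over 1.2-fold higher in replicate 1. Of 4 muscle genes, Ckm and Tnnt3 were at 0 counts in replicate 1 and 1 count in replicate 2, while Acta1 and Myh6 were detected and the sum was 4.82 and 4.43 TPM. Their part in the values below was not tested.

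Nearly the whole machinery was present. Of the 66 genes, 63 had at least 1 TPM in both libraries, which is 95.5%, against 57.8% of the 22028 protein-coding genes. TPM is an abundance corrected for effective transcript length and scaled to a fixed total, and it is used wherever genes are compared. The median level of the 66 genes was 28.8 TPM in replicate 1 and 26.1 TPM in replicate 2, beside 14.7 and 14.1 TPM for detected protein-coding genes. The 66 genes took 1.24% and 1.25% of all protein-coding TPM. Within that sum, the eEF1 and eEF2 subunit genes took 45.4% and 45.7%, and Eef1a1 alone 23.8% and 24.2%.

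The genes below 1 TPM were Eif4e1b, Eef1akmt3 and Eef1akmt4. Eif4e1b, the eIF4E form known from oocytes, had 0 counts in replicate 1 and 1 count in replicate 2. Eef1akmt3, a lysine methyltransferase of eEF1A, was at 0.07 and 0.09 TPM, from 5 and 6.27 expected counts. Eef1akmt4, another such enzyme, was at the limit itself, with 0.98 and 1.03 TPM, and 31.2% of the 31-base stretches of its transcripts, called words here, also occurred in other genes.

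**Figure D1:**
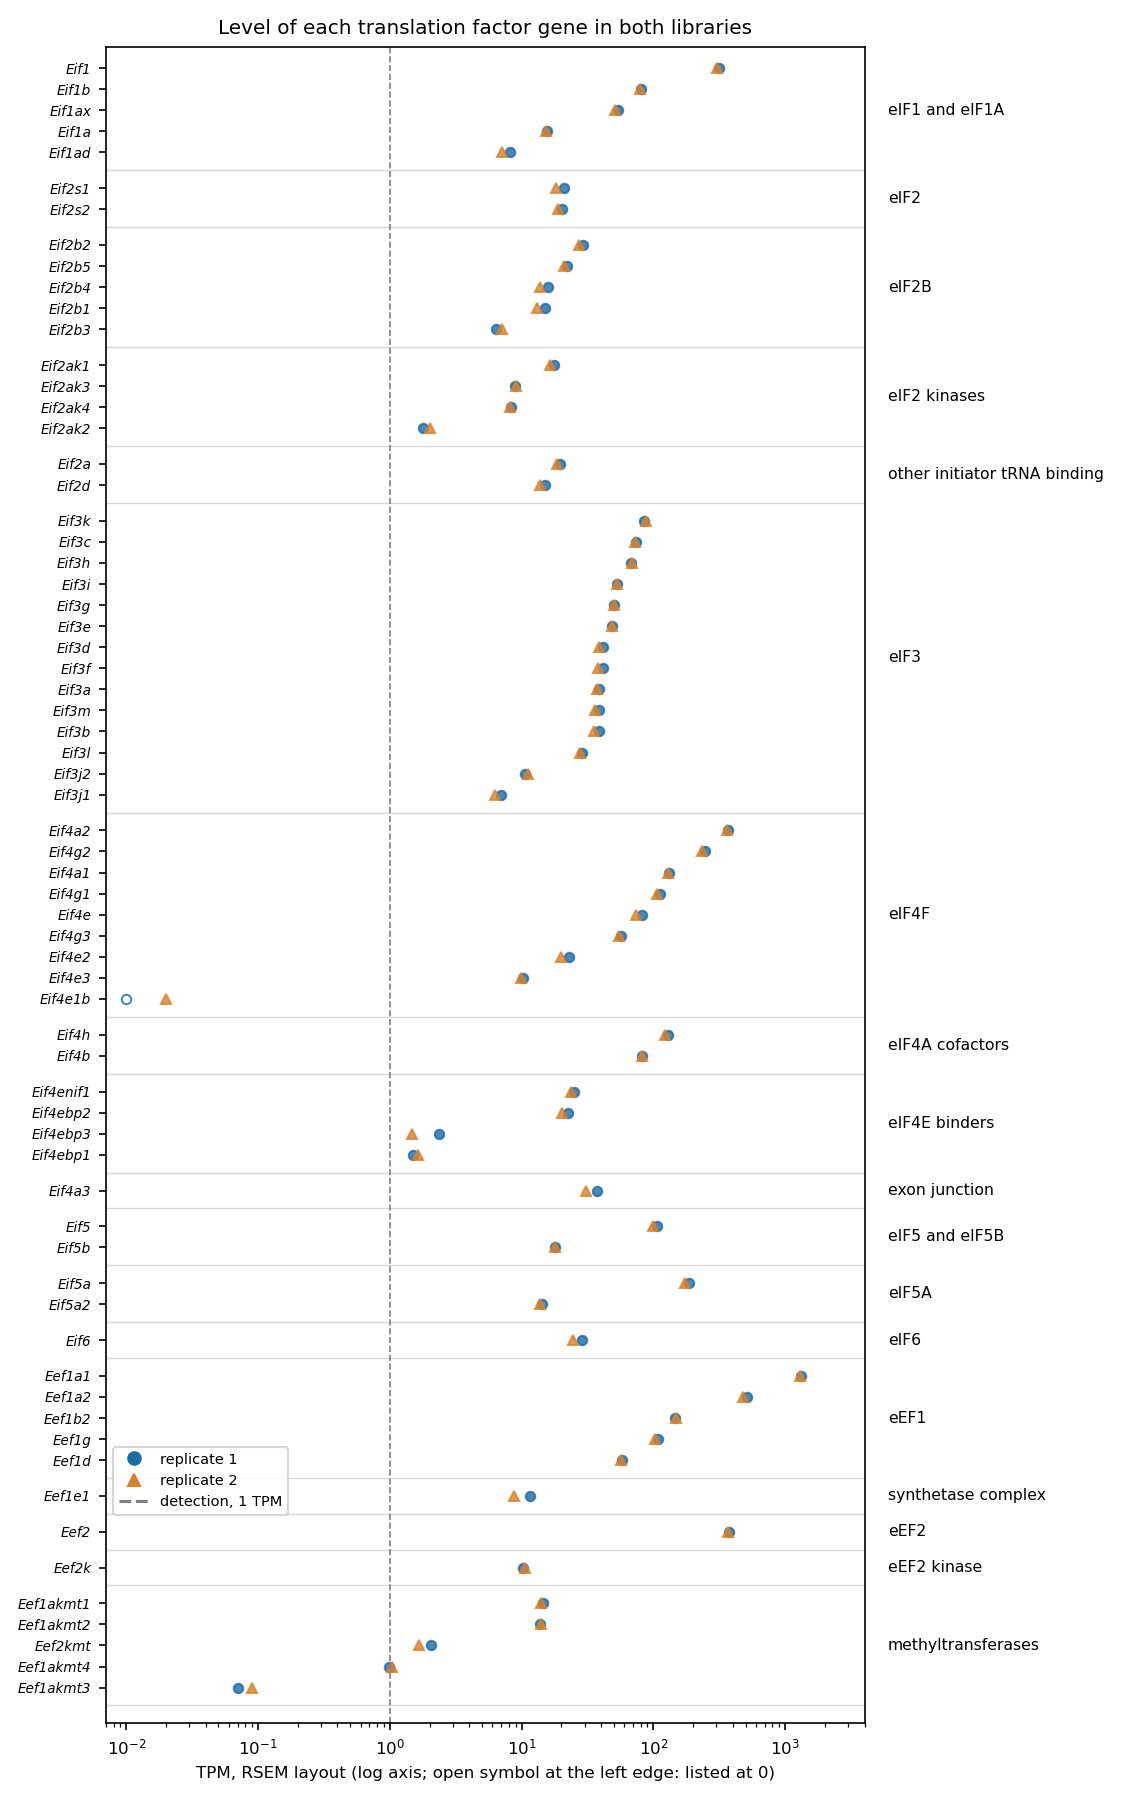
TPM of each of the 66 genes (RSEM layout, log axis) in replicate 1 (circles) and replicate 2 (triangles), grouped by role, with the detection level of 1 TPM as a dashed line. Eef1a1 stands at 1319 and 1296 TPM, the eIF3 genes other than Eif3j1 and Eif3j2 form a narrow band, and 3 genes lie at or left of the line in at least 1 library.

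The eEF1A genes led the set. Eef1a1, on chromosome 9 at 78478449 to 78489151 of mm10, reached 1319 TPM in the first library and 1296 TPM in the other. Eef1a2, on chromosome 2 at 181147653 to 181157014, was at 509 and 480 TPM. Eef1a1 was thus above Eef1a2 in both libraries and the levels did not overlap. The ratio of their TPM was 2.59 in replicate 1 and 2.70 in replicate 2, with a mean of 2.65 ± 0.0772 (SD, n = 2). Eef1a2 therefore made up 27.8% and 27.0% of the summed eEF1A TPM. In this bulk tissue, fewer cells that use a form and less of its RNA per cell cannot be told apart.

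How far reads of the 2 genes can be separated is shown by their coding sequences. The first 90 coding bases of the leading protein-coding transcripts, from GENCODE M21 on mm10, are printed below with capitals at the bases that differ. Both lie on the minus strand within a single exon, Eef1a1-201 at chr9:78480565-78480654 and Eef1a2-201 at chr2:181155317-181155406.
Eef1a1: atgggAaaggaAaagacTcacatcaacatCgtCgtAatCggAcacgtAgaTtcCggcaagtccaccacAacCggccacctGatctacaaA
Eef1a2: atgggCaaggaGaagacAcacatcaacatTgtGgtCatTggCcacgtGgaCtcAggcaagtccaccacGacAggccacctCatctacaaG
These stretches differ at 15 of 90 bases. Over the whole coding sequence, of 1386 and 1389 bases, 80.1% of aligned bases were identical and the longest identical run was 23 bases. No word of 31 bases occurred in transcripts of both genes.

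Eef1a1 did share sequence with its processed pseudogenes, the reinserted copies of its mRNA. Of its 31-base words, 51.5% also occurred in another annotated gene, and 22 pseudogenes held such words. Those pseudogenes were assigned 1855 and 1955 expected counts, or 3.62% and 3.64% of the Eef1a1 count, with 62.0 and 61.8 TPM in sum. Eef1a2 shared 0% of its words with any gene. With the pseudogene TPM added to Eef1a1, a setting chosen after seeing the data, the ratio was 2.77. The deposited quantifications split these copies differently. AC133509.1 had 680 and 671 RSEM-layout counts but 50.2 and 56.8 kallisto-layout counts, while AC122119.2 had 2.05 and 0 but 220 and 216. Over the 22 pseudogenes the kallisto-layout counts were 1517 and 1559. Those of Eef1a1 itself were 47730 and 50109, below its RSEM-layout counts of 51284 and 53658. In the kallisto layout the TPM ratio of Eef1a1 to Eef1a2 was higher, 3.05 and 3.21, with Eef1a2 at 24.7% and 23.8% of the sum. The transcript Eef1a1-208 held 43.4% and 43.6% of Eef1a1 TPM there, against 8.97% and 7.23% in the RSEM layout. The source of the higher ratio was not tested.

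The exchange factor subunits that recharge eEF1A with GTP stood lower. Eef1b2, the catalytic beta subunit, was at 145 and 148 TPM. Eef1g, the gamma subunit, was at 109 and 103 TPM, and Eef1d, the delta subunit, at 58.0 and 57.1 TPM. All 3 lay below Eef1a2 in both libraries, by more than the spread. In the kallisto layout Eef1b2 was also above Eef1g, at 324 ± 19.1 against 209 ± 3.65 TPM. With protein-coding transcripts alone they were at 93.8 ± 1.60 and 89.2 ± 4.83 TPM (SD, n = 2), closer than the spread. Eef1g shared 47.6% of its words with other genes, and its pseudogenes Gm5525 and Gm4366 held 259 and 92.4 counts in replicate 1 and 239 and 129 in replicate 2.

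Eef2, the translocase, was at 377 and 366 TPM. Its level of 372 ± 8.03 TPM differed from that of the helicase gene Eif4a2, 364 ± 2.28 TPM, by less than the spread in this layout. In the kallisto layout Eif4a2 was the higher, at 693 ± 16.1 against 541 ± 5.17 TPM, and with protein-coding transcripts alone Eef2 was, at 365 ± 7.41 against 164 ± 2.33 TPM (SD, n = 2). The pseudogene Gm13050, which shares 12.4% of the words of Eef2, held 637 and 685 counts against 28315 and 29400 for Eef2 itself. Eef2k, the kinase that inactivates eEF2, was at 10.2 and 10.6 TPM. The ratio of Eef2 to Eef2k was 37.1 and 34.6, with a mean of 35.8 ± 1.73 (SD, n = 2).

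Enzymes that modify the elongation factors stood below the eEF1 and eEF2 subunit genes. Eef1akmt1 and Eef1akmt2, lysine methyltransferases of eEF1A, had means of 14.2 ± 0.396 and 13.9 ± 0.311 TPM (SD, n = 2). Eef2kmt, which methylates eEF2, was at 2.04 and 1.66 TPM. Its transcripts share 16.3% of their words with Alg1, a neighbour with 456 and 479 counts against 72 and 71 for Eef2kmt. Eef1e1, a scaffold protein of the tRNA synthetase complex, was at 11.7 and 8.77 TPM.

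Among the scanning factors, Eif1, which guards start codon choice, was the highest at 313 and 306 TPM. Its paralog Eif1b was at 79.9 and 78.4 TPM, so that the ratio was 3.92 and 3.90. It was 3.34 in the kallisto layout but 1.78 with protein-coding transcripts alone. Coding sequences of the pair were 81.1% identical, with a longest identical run of 25 bases. Of the genes for eIF1A, which aids scanning, the X-linked Eif1ax was at 54.0 and 51.4 TPM and Eif1a at 15.6 and 15.2 TPM. Eif1ax exceeded Eif1a 3.42-fold ± 0.0673 in the RSEM layout but 2.07-fold ± 0.00994 in the kallisto layout (SD, n = 2) and 2.20-fold with protein-coding transcripts alone, so the size of the ratio rested on the quantification. Eif1ad, a gene with an eIF1A-like domain, was at 8.17 and 7.14 TPM.

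Whether the eIF2 subunit genes were level with each other depended on the quantification. In summed RSEM-layout TPM, Eif2s1, the alpha subunit and target of the stress kinases, was at 19.6 ± 2.11 TPM, and Eif2s2, the beta subunit, at 19.6 ± 0.877 TPM (SD, n = 2), closer than the spread. Counting protein-coding transcripts alone, Eif2s1 was at 9.39 and 9.48 TPM and Eif2s2 at 19.29 and 18.25 TPM. In the kallisto layout Eif2s1 was at 19.1 and 18.2 TPM and Eif2s2 at 31.7 and 32.5 TPM, so that Eif2s2 was the higher in both of these settings. The eIF2B genes, which encode the exchange factor of eIF2, ranged from Eif2b3 at 6.39 and 7.15 TPM to Eif2b2 at 29.4 and 27.5 TPM. Between them lay Eif2b5, the catalytic epsilon subunit, at 21.4 ± 0.764, Eif2b4 at 14.9 ± 1.48 and Eif2b1 at 14.1 ± 1.499 TPM. Eif2b3 was the lowest in every setting compared, but the highest gene changed. With protein-coding transcripts alone Eif2b5 led at 21.95 and 20.86 TPM and Eif2b2 was at 12.1 and 11.8 TPM, and in the kallisto layout Eif2b1, at 40.4 ± 9.08 TPM, and Eif2b2, at 35.4 ± 1.14 TPM, differed by less than the spread. Eif2a and Eif2d, other proteins that can bring tRNA to the ribosome, were at 19.0 ± 0.707 and 14.3 ± 0.870 TPM.

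All 4 kinases that phosphorylate eIF2 alpha were detected, at unequal levels. Eif2ak1, the haem-regulated kinase HRI, was the highest at 17.6 and 16.5 TPM. Eif2ak3, the endoplasmic reticulum kinase PERK, was at 8.84 and 9.01 TPM and Eif2ak4, the amino acid sensor GCN2, at 8.34 and 8.23 TPM. The ratio of Eif2ak1 to these was 1.91 ± 0.116 and 2.06 ± 0.0780 (SD, n = 2). Eif2ak2, the double-stranded RNA kinase PKR, was the lowest at 1.79 and 2.02 TPM, from 142 and 167 counts.

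Most eIF3 genes lay close together. Without the genes for the loosely held j subunit, the 12 eIF3 genes had medians of 44.8 and 43.5 TPM and spanned 2.96-fold in replicate 1 and 3.19-fold in replicate 2. With both j genes the span was 12.3-fold and 14.0-fold. Of the 12, in the RSEM layout, Eif3k was the highest at 85.5 and 88.3 TPM and Eif3l the lowest at 28.9 and 27.7 TPM. Eif3c and Eif3h, at 73.5 ± 1.15 and 68.5 ± 0.785 TPM, followed Eif3k, and Eif3i, Eif3g and Eif3e lay between 48.2 and 52.7 TPM in each library. In the kallisto layout Eif3k, at 135 ± 2.79 TPM, and Eif3c, at 133 ± 6.42 TPM (SD, n = 2), differed by less than the spread. Eif3c was the higher in replicate 2 there. In the RSEM layout Eif3a, which encodes a scaffold subunit, was at 38.0 ± 0.792 TPM, within the spread of Eif3m at 37.5 ± 1.88, Eif3b at 37.0 ± 2.66, Eif3d at 39.9 ± 2.11 and Eif3f at 39.7 ± 2.45 TPM. Eif3d shares 39.6% of its words with an annotated antisense gene, Gm17638, which held 1 and 4 counts.

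The j subunit is encoded by Eif3j1 and Eif3j2, which cannot be divided with confidence. Over the 783 aligned coding bases the genes were 100% identical, and 94.0% of the 31-base words of Eif3j2 occurred in Eif3j1. Eif3j2 was listed at 10.5 and 11.2 TPM and Eif3j1 at 6.95 and 6.29 TPM. Any ratio between them rests on how the quantification divided shared reads.

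The eIF4A genes, which encode the RNA helicase of the cap complex, were led by Eif4a2 at 365 and 362 TPM. Eif4a1 was at 131 and 129 TPM, and Eif4a3, the paralog of the exon junction complex, at 37.5 and 30.8 TPM. Eif4a2 thus exceeded Eif4a1 2.79-fold ± 0.0127 and Eif4a3 10.8-fold ± 1.43 (SD, n = 2). With protein-coding transcripts alone these ratios were 1.54 and 6.04, and Eif4a2 over Eif4a3 was 13.5 in the kallisto layout. Over the whole coding sequence Eif4a2 and Eif4a1 were 78.0% identical, with a longest identical run of 20 bases. A stretch of their leading protein-coding transcripts in the RSEM layout is printed below, with capitals at differing bases. The stretch spans an intron in both genes, Eif4a2-203 at chr16:23108598-23108772 on the plus strand and Eif4a1-213 at chr11:69670694-69670963 on the minus strand of mm10.
Eif4a2: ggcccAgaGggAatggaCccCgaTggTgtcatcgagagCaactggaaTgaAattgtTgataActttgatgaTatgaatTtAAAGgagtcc
Eif4a1: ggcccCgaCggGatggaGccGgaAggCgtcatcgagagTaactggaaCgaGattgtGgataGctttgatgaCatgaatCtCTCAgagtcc
The stretches differ at 18 of 90 bases, and the genes share 0 words of 31 bases. Eif4a1 shared words with the pseudogene Eif4a-ps4, which was assigned 585 and 524 counts against 5087 and 5360 for Eif4a1. The kallisto layout gave a smaller ratio of Eif4a2 to Eif4a1, 1.60 and 1.57, with Eif4a1 at 427 and 450 TPM there. The direction held in both layouts, while the size rested on the quantification.

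Cap-binding and scaffold genes followed. Eif4e, which binds the cap, was at 81.6 and 73.8 TPM. Its paralog Eif4e2, a form linked to translational repression, was at 23.0 and 20.0 TPM and Eif4e3 at 10.2 and 9.81 TPM. Eif4e exceeded them 3.62-fold ± 0.0930 and 7.77-fold ± 0.344 (SD, n = 2). Of the scaffold genes, Eif4g2, whose product lacks the eIF4E-binding part, was the highest at 246 and 233 TPM. Eif4g1 was at 112 and 107 TPM and Eif4g3 at 57.0 and 54.5 TPM, so that each step down was about the same in both libraries, 2.19 and 2.18 and then 1.97 and 1.96. The helicase cofactors Eif4h and Eif4b stood at 126 ± 5.52 and 81.7 ± 0.318 TPM.

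The eIF4E-binding repressors were unequal in level. Eif4ebp2, the form known as the main one of the brain, was at 22.5 and 20.3 TPM. Eif4ebp1 was at 1.57 ± 0.0919 TPM (SD, n = 2), from 42 and 50 counts, and Eif4ebp3 at 2.38 and 1.48 TPM, from 39 and 26 counts. Eif4ebp2 exceeded Eif4ebp1 13.7-fold ± 1.82 (SD, n = 2) in the RSEM layout and 8.67-fold ± 0.943 in the kallisto layout, and 39.9-fold with protein-coding transcripts alone. Its ratio to Eif4ebp3 was 11.6 ± 2.99 by the RSEM layout but 6.19 ± 0.0958 by the kallisto layout. Eif4ebp3 shares 66.4% of its words with the overlapping gene AC115631.1, which held 231 and 220 counts, so its level is uncertain. Eif4enif1, which carries eIF4E into the nucleus, was at 24.3 ± 0.962 TPM.

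The remaining initiation factors act at different steps. Eif5, the GTPase-activating protein of eIF2, was at 106 and 99.4 TPM, and Eif5b, the GTPase of subunit joining, at 17.9 and 17.8 TPM. Eif5a, which carries hypusine and aids elongation and termination, was at 187 and 174 TPM. Its paralog Eif5a2 was at 14.3 and 13.8 TPM, a ratio of 12.8 ± 0.282 (SD, n = 2). Eif6, which keeps the large subunit apart from the small, was at 28.6 and 24.7 TPM.

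**Figure D2:**
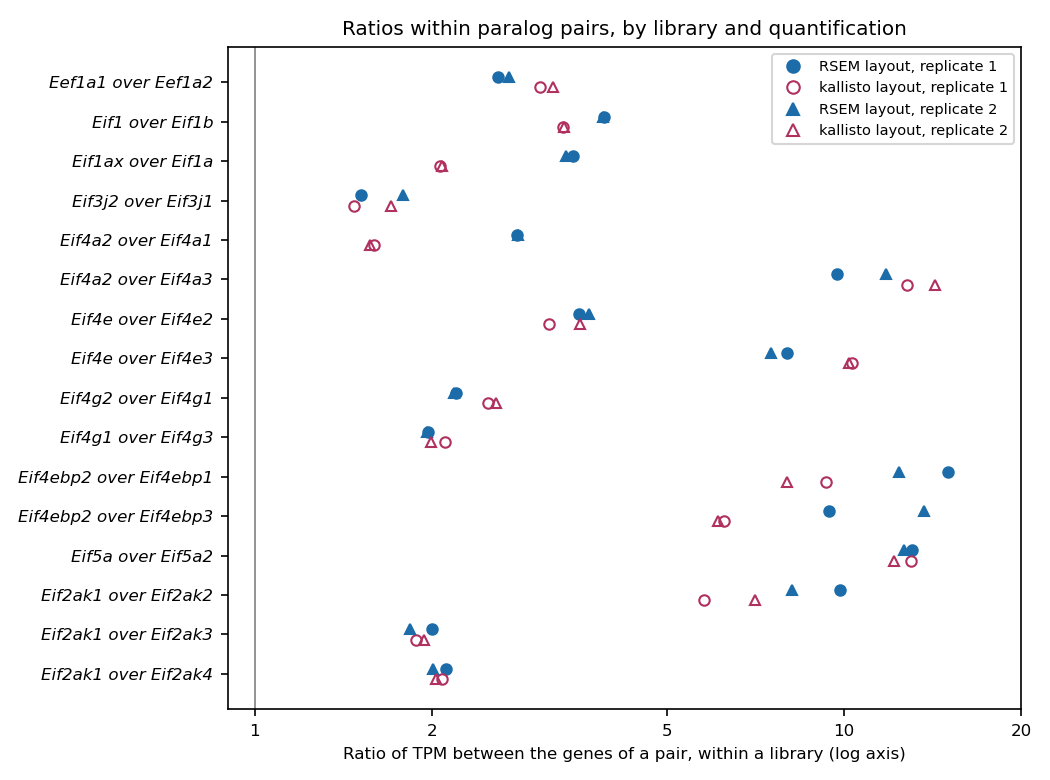
Ratio of TPM within 16 paralog pairs (log axis), by library (circles, replicate 1; triangles, replicate 2) and quantification (filled, RSEM layout; open, kallisto layout). All points lie right of 1, and the layouts differ most for Eif4a2 over Eif4a1, at 2.79 against 1.58, and for Eif4ebp2 over Eif4ebp3.

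The libraries held the set at nearly the same level. Counts were scaled by TMM factors, which level the libraries on the bulk of genes, and a gene was compared where its mean count was at least 50, which 61 of the 66 genes reached. None of the 61 was over 2-fold apart, where 0.384% of all 14307 genes with that depth were. None was over 1.2-fold apart either, where 10.4% of all genes were, 5.62% higher in replicate 2 and 4.75% higher in replicate 1. With kallisto-layout counts 3 genes of the set were, beside a background of 10.7%. Eif2b3 and Eef1akmt2 were higher in replicate 2 there, and Eif4ebp1 in replicate 1. Eif4ebp1 is not among the 61 and passed the count minimum only in that layout, with 99.2 and 78.3 counts. In the RSEM layout it was 1.16-fold higher in replicate 2. With TPM as deposited 3 were, Eef1e1, Eef2kmt and Eif4a3, all higher in replicate 1, beside 15.8%. The share among protein-coding genes was 8.57%, and it was 2.05% at a mean count of 500 or more, a depth that 54 of the 66 genes reached. The absence of calls is therefore near the background at matched depth and is not a result about these genes.

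Single genes differed little. Eif2b3 had the largest ratio among the 61 genes, 1.19-fold in favour of replicate 2 (exact 95% counting interval 1.00 to 1.41), from 249 and 303 counts. Eif2ak2 was 1.15-fold higher in replicate 2 (0.91 to 1.45), and Eif2b1 was 1.13-fold higher in replicate 1 (1.00 to 1.27). Below the count minimum, Eif4ebp3 was 1.54-fold higher in replicate 1 (0.91 to 2.63), from 39 and 26 counts. The interval left out 1 in 6 of the 61 genes, or 9.84%, of which 5 were higher in replicate 2, beside 20.1% of all genes. Eef1a1 was among them, with only 1.02-fold more in replicate 2 (1.01 to 1.03), from 51284 and 53658 counts. The intervals cover counting error alone.

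Among the 64 genes that averaged 10 or more counts, the median log2 ratio of replicate 2 to replicate 1 was 0.0055, beside -0.00047 over all 18350 such genes. The median absolute log2 ratio of the 61 genes was 0.03, beside 0.07 over all genes of that depth. The translation factors were also deeper, with a median mean count of 1685 beside 723, so the narrower spread is not read as particular to them.

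**Figure D3:**
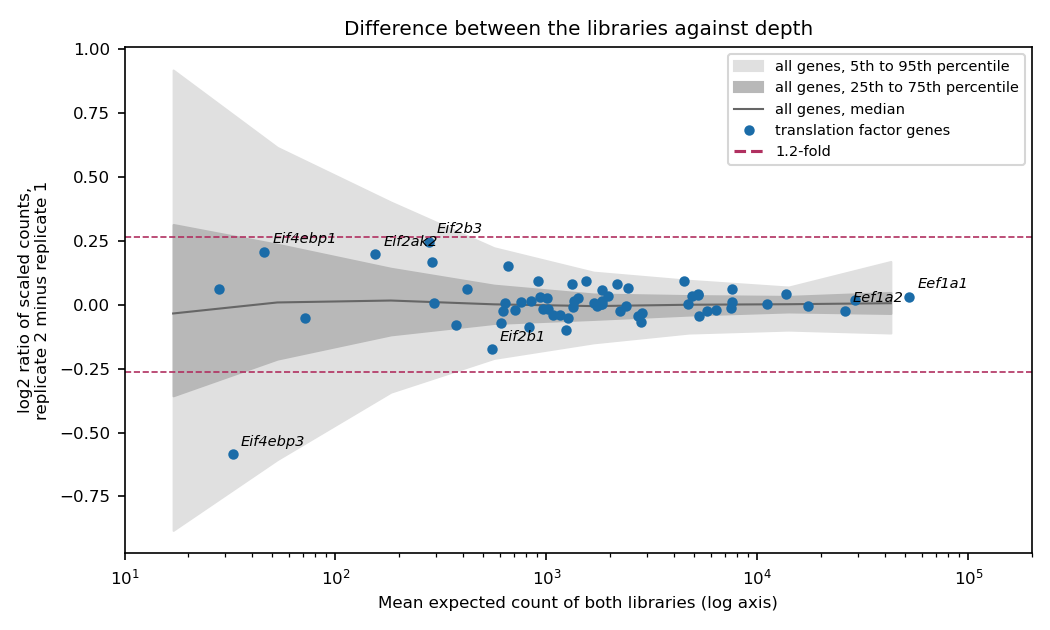
Log2 ratio of TMM-scaled counts, replicate 2 minus replicate 1, against the mean expected count (log axis) for the 64 genes that averaged 10 or more counts (blue points). Grey bands give the 5th to 95th and 25th to 75th percentiles of all genes in 8 ranges of mean count, and dashed lines mark 1.2-fold. All points past a mean count of 50 lie between the dashed lines, and Eif4ebp3, with fewer counts, lies below them.

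Transcript classes differed sharply within the set. GENCODE gives the 66 genes 421 transcripts, some annotated as retained intron, nonsense-mediated decay target or processed transcript. These classes, called non-coding here for short although decay targets hold a reading frame, took a median of 8.14% of a detected gene's TPM, beside 9.32% over detected protein-coding genes. They took over 50% in 7 of the 63 detected genes, or 11.1%, near the 9.02% of all detected protein-coding genes. The 7 were Eif4ebp1, Eif2b2, Eif4a2, Eif1, Eef1e1, Eif5b and Eif2s1, of which Eef1e1 and Eif2s1 passed by their mean, with 47.3% and 47.7% in replicate 2. The highest shares were 65.5% ± 1.59 for Eif4ebp1, from under 50 counts a library on average, and 57.9% ± 1.13 for Eif2b2 (SD, n = 2). In the kallisto layout the count was 4, beside a background of 11.2%, and the 4 were Eif4a1, Eif4a2, Eef1b2 and Eif5b.

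Eif4a2 and Eif5b were past 50% in both layouts. The leading transcript of Eif4a2 in the RSEM layout was Eif4a2-210, a target of nonsense-mediated decay, with 41.4% and 41.9% of the gene's TPM. In the kallisto layout Eif4a2-210 took 10.5% and 11.5%, and the protein-coding Eif4a2-201 led with 39.5% and 38.0%. Its non-coding classes summed to 54.6% and 55.1% by the RSEM layout and to 50.1% and 51.5% by the kallisto layout. The sum was thus closer between the layouts than the split among transcripts.

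Eif4a1 differed widely between the layouts in its non-coding share. Its non-coding transcripts took 19.3% and 17.3% in the RSEM layout but 70.9% and 71.2% in the kallisto layout. Within the bounds of Eif4a1 lie the small nucleolar RNA genes Gm22988 and Gm25835, which had 1003 and 106 counts in replicate 1 and 1084 and 112 in replicate 2 by the RSEM layout, and 0 by the kallisto layout. Whether reads of these RNAs were given to Eif4a1 transcripts there was not tested.

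For most genes the leading transcript did not depend on the table. One transcript led in all 4 tables for 49 of the 63 detected genes, or 77.8%, near the 71.2% of all detected protein-coding genes. The 14 others were Eif4a2, Eif1, Eef1b2, Eif4h, Eef1d, Eif4e2, Eif2s1, Eif5b, Eif1a, Eif2b1, Eef2k, Eef1e1, Eef2kmt and Eif4ebp1. Eef1a2-201 is the single annotated transcript of Eef1a2, and Eef2-201 took 98.2% ± 0.128 of Eef2 (SD, n = 2). Eef1a1-201 led Eef1a1 with 83.3% and 82.6%, but the share of Eef1a1-208, also protein-coding, was 8.97% and 7.23% by the RSEM layout but 43.4% and 43.6% by the kallisto layout. Eef1d went from Eef1d-204, at 28.5% and 27.8%, to Eef1d-217, at 42.9% and 43.8%, and Eif4h from Eif4h-201, at 69.3% and 66.7%, to Eif4h-205, at 54.8% and 60.2%. All of these are protein-coding, so for Eef1d and Eif4h the layouts disagreed on which coding form leads. Eif1 was led by the processed transcript Eif1-202 in the RSEM layout, at 48.8% and 51.6%, and by the protein-coding Eif1-201 in the kallisto layout, at 57.1% and 55.1%. With protein-coding transcripts alone, the ratio of Eef1a1 to Eef1a2 was 2.56.

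**Figure D4:**
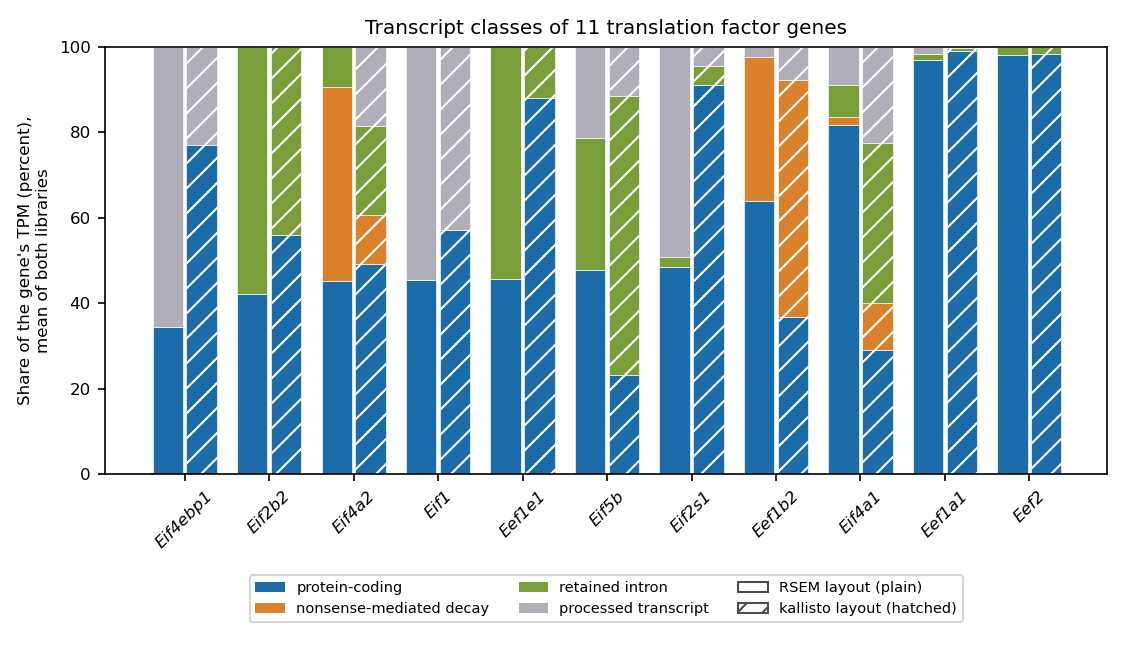
Share of each gene's TPM (percent, mean of both libraries) in protein-coding, nonsense-mediated decay target, retained intron and processed transcripts, for the 7 genes past 50% non-coding in the RSEM layout and 4 others. Plain bars are the RSEM layout and hatched bars the kallisto layout. Eif4a1 falls from mostly protein-coding to mostly non-coding between the bars, while Eef2 is alike in both.

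Gene levels differed less than transcript shares. After division by the median kallisto to RSEM ratio of detected protein-coding genes, 1.63 and 1.70, none of the 63 detected genes was over 2-fold apart in both libraries, where 1.26% of those genes were. At 1.5-fold there were 5 of 63, beside a background of 4.61%. They were Eif4a1, higher in the kallisto layout at 1.99 and 2.04, Eif2b1, higher at 1.89 and 1.53, and the lower Eef1e1, at 0.450 and 0.522, Eif2s1, at 0.555 and 0.590, and Eif1ax, at 0.626 and 0.629. Levels of these 5 genes should be read with that range.

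Other genes of translation and its control were present throughout. All 46 genes of 8 lists were detected, beside 57.8% of all protein-coding genes. The lists were chosen with earlier results of these data known, so full detection is not read as a finding. Between the libraries 1 was over 1.2-fold apart, beside 10.4% of all genes and 2.05% of protein-coding genes at a mean count of 500 or more. Many of the 46 reached that depth, so the low count is not a result about these genes. The 1 gene was Ddit3, the stress-induced factor CHOP, at 18.57 and 12.97 TPM, or 1.35-fold in favour of replicate 1 (exact 95% counting interval 1.15 to 1.58). Atf4, which acts above it and is induced when eIF2 alpha is phosphorylated, was at 39.7 and 37.5 TPM. Oligodendrocyte and choroid plexus markers were also higher in replicate 1, and their part in the Ddit3 value was not tested. Cyfip2, a partner of eIF4E and of the fragile X protein, was the highest of the 46 at 216 and 209 TPM, and Pabpc1, the poly(A)-binding protein of the cap complex, was at 118 and 117 TPM. The termination genes Etf1 and Gspt1 were at 25.4 and 24.8 TPM and at 34.6 and 32.0 TPM. The mitochondrial elongation factor Tufm was at 31.8 and 33.0 TPM. The list medians ran from 11.6 TPM for mitochondrial factors to 38.5 TPM for poly(A) binding in replicate 1. The median of the translation factor set in replicate 1, 28.8 TPM, lay inside that range. Medians of its role groups lay below, within and above the range. Examples in replicate 1 were 8.59 TPM for the eIF2 kinases, 20.6 TPM for eIF2 and 145 TPM for the eEF1 genes.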

How the data were processed

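Per the file headers, the gene and transcript tables deposited by the authors have the RSEM layout, with an expected count, TPM, FPKM and, per transcript, a percent of the gene's abundance. A further deposited transcript table has the kallisto layout, with an estimated count and TPM per transcript, summed here by gene identifier. Build mm10 and GENCODE M21 are named in the deposited notes. Not given in the sources used here are the aligner, program versions and strand setting, so reads of overlapping or antisense genes (Eif3d with Gm17638, Eef2kmt with Alg1) may be misassigned.

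Expected counts were rounded to whole numbers. The 26248 numbered rows without a gene name held 2.78 counts in replicate 1 and 6.00 in replicate 2 and were kept out, as were spike-ins. Libraries were scaled with TMM factors of edgeR 4.0.16 after its expression filter, under R 4.3.3, with size factors of DESeq2 1.42.0 as an alternative. No model was fitted to the difference, since each arm holds 1 library. Log2 ratios set replicate 2 over replicate 1, with 2 prior counts added. Folds have exact 95% binomial intervals conditional on the summed count, for counting error only. Detection means at least 1 TPM in both libraries. Shared sequence is the share of 31-base words of a gene's transcripts found in another gene. Coding sequences of the leading protein-coding transcripts were aligned end to end. All sequences compared came from GENCODE M21 on mm10, so CAST/EiJ alleles that differ from it were not considered. The scaling was tried on simulated counts with 200 genes changed 4-fold, as many up as down. Their spread was taken from these same libraries, and smaller or one-sided changes were not simulated. Tables were handled in pandas 2.3.3 and numpy 2.4.6, and intervals came from scipy 1.17.1, under Python 3.11.15.

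The genes, roles, pairs and lists were chosen with earlier results of these data known. Genes named in full are the elongation factors, the paralog sets, the highest and lowest gene of each other complex, genes past a threshold, genes not detected, and genes whose leading transcript differed between tables or was not protein-coding, with the 3 highest non-coding shares. Values of the other members were added for completeness. Alternatives were other scalings, count and TPM minimums, prior counts, FPKM, posterior mean values, the kallisto layout, protein-coding transcripts alone and each library alone. Allele-specific expression was not analysed here.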

Additional observations from a re-analysis of the deposited data

How the results depend on the processing

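No paired analysis was possible because there is only 1 group. The ratio of Eef1a1 to Eef1a2 was 2.65 and kept its direction in every setting tried. It was 3.13 in the kallisto layout, 2.56 for protein-coding transcripts alone, 2.77 with pseudogene TPM added, a setting chosen after seeing the data, and 2.59 to 2.70 in each library alone. Order held in all 16 other ratios, Eef2 over Eef2k included, under FPKM, posterior mean TPM, kallisto-layout TPM, protein-coding transcripts and each library alone. For Eif3j2 over Eif3j1 the order is not read as a result, since their shared reads cannot be divided with confidence. The share of protein-coding TPM, 1.25%, became 1.28% in the kallisto layout, 0.932% of expected counts and 1.33% without mitochondrially encoded genes.

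The count of genes over 1.2-fold apart between the libraries, 0, became 3 with kallisto-layout counts, beside a background of 10.7%. These were Eif2b3, Eef1akmt2 and Eif4ebp1, of which Eif4ebp1 passed the count minimum only with these counts. It became 3 with TPM as deposited, beside 15.8%, and these were Eef1e1, Eef2kmt and Eif4a3. It became 1, Eif4ebp3, at a mean count of at least 10. TPM as deposited also moved the median log2 ratio of all genes by -0.06 and that of the set to -0.07. Genes over 2-fold apart between the layouts, 0, became 5 at 1.5-fold. The count ranged from 1 to 1 in each library alone, with Eef1e1 past the limit in replicate 1 and Eif4a1 in replicate 2. Genes past 50% non-coding, 7, became 4 in the kallisto layout and 1, Eif4a2, by expected counts, and 5 to 7 in each library alone. The cause of these changes was not tested. The planned addition of pseudogenes named after Eef1a1 was not run, as no gene is so named.

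Depth limits Eif4e1b, Eef1akmt3, Eef1akmt4, Eif4ebp1 and Eif4ebp3, all with a mean count under 50.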

Other observations

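Several translation factor genes have small RNA genes annotated within their bounds, on the same strand. Besides Gm22988 and Gm25835 in Eif4a1, the small nucleolar RNA gene Gm26447 in Eif4a2 had 324 and 355 counts, and Gm23262 in Eif4g2 had 118 and 123 counts in the RSEM layout. All of these were at 0 in the kallisto layout. Others, such as Snord37 in Eef2, Snord66 in Eif4g1 and Snora41 in Eef1b2, were at 0 counts in both libraries and both layouts. The library protocol's recovery of RNAs this short was not tested.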
